A study of Mus musculus with 12 samples.

Results

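Vasoconstrictor receptors are the cell-surface proteins through which circulating and local agonists contract vascular smooth muscle cells (SMCs). The set described here holds 10 receptor genes of 52636 genes in the count matrix, chosen by name as the receptors for norepinephrine, angiotensin II, endothelin, serotonin, vasopressin, and thromboxane that couple to contraction. The members are the α1-adrenergic receptor genes *Adra1a*, *Adra1b*, and *Adra1d*, the type 1 angiotensin receptor genes *Agtr1a* and *Agtr1b*, the endothelin receptor genes *Ednra* and *Ednrb*, the serotonin receptor gene *Htr2a*, the vasopressin receptor gene *Avpr1a*, and the thromboxane receptor gene *Tbxa2r*. All 10 passed the filter on low counts.

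The samples are 12 bulk RNA-seq libraries of GFP+ SMCs sorted from 6 C57BL/6J mice at 12 weeks of age, with 1 library from the ascending aorta and aortic arch (ASC) and 1 from the descending thoracic aorta (DESC) of each animal. The 3 GFPiSMC mice, labelled WT, carried Myh11-CreERT2 and the mT/mG reporter, which switches a labelled cell from red to green fluorescence after Cre recombination. The 3 Tgfbr1/2iSMCKO mice, labelled KO, carried the same Cre and reporter together with floxed alleles of both TGF-β receptor genes, *Tgfbr1* and *Tgfbr2*. Mice of both genotypes received tamoxifen on 5 days, so the control cells had also been exposed to tamoxifen and active Cre. The labels give 1 or 2 mg per day starting at 4 or 11 weeks of age without saying which animal received which, and the study's methods give the higher dose from 11 weeks for the short-term experiment. The *Myh11* promoter confines recombination to SMCs, and this Cre transgene lies on the Y chromosome, so the animals of both genotypes are males. The WT mice have no floxed alleles, and the line and the deletion cannot be told apart in these libraries.

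In SMCs most of these receptors activate Gq and phospholipase C, which releases calcium from intracellular stores and raises the contractile force of the aortic wall. The repertoire is known to vary between vascular beds: the α1D subtype is prominent in rodent aorta, rodents carry a pair of type 1 angiotensin receptor genes where humans have a single gene, and the endothelin A receptor is the main endothelin receptor of SMCs while the B receptor is prominent in endothelium. Norepinephrine and angiotensin II are the pressor agents that the study infused, so the level of their receptors in control and receptor-deficient SMCs is a direct question for these data.

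Total counts per library ranged from 20467027 to 31392396, so that 3 counts, the limit that a count of 0 allows, correspond to between 0.0966 and 0.146 CPM, which are counts scaled to a TMM-adjusted library total of 1000000. The summed CPM of 8 SMC markers was 34720 to 48427 in every library, against 56.6 to 107 for 8 endothelial markers, most of it *Pecam1*, and 186 to 1361 for 8 fibroblast markers, most of it *Gsn*. *Tgfbr1* averaged 259 ± 29.0 (SD, n = 3) CPM in WT ASC and 246 ± 48.8 in KO ASC, and *Tgfbr2* 113 ± 12.8 and 98.6 ± 3.54. In DESC, *Tgfbr1* averaged 211 ± 23.6 CPM in WT and 257 ± 15.8 in KO, and *Tgfbr2* 99.3 ± 11.3 and 79.4 ± 10.2. Whole-gene counts do not isolate the deleted exons, so these values do not test the deletion. Both libraries of animal KO3 stood apart, with *Acta2* at 20543 and 21323 CPM against 27245 to 31930 in the other libraries and *Gsn* at 1292 and 1013 CPM against 170 to 642, so results are also given without KO3 where that ends a call. In bulk samples, fewer cells of a type and less RNA per cell cannot be told apart.

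**Figure D1:**
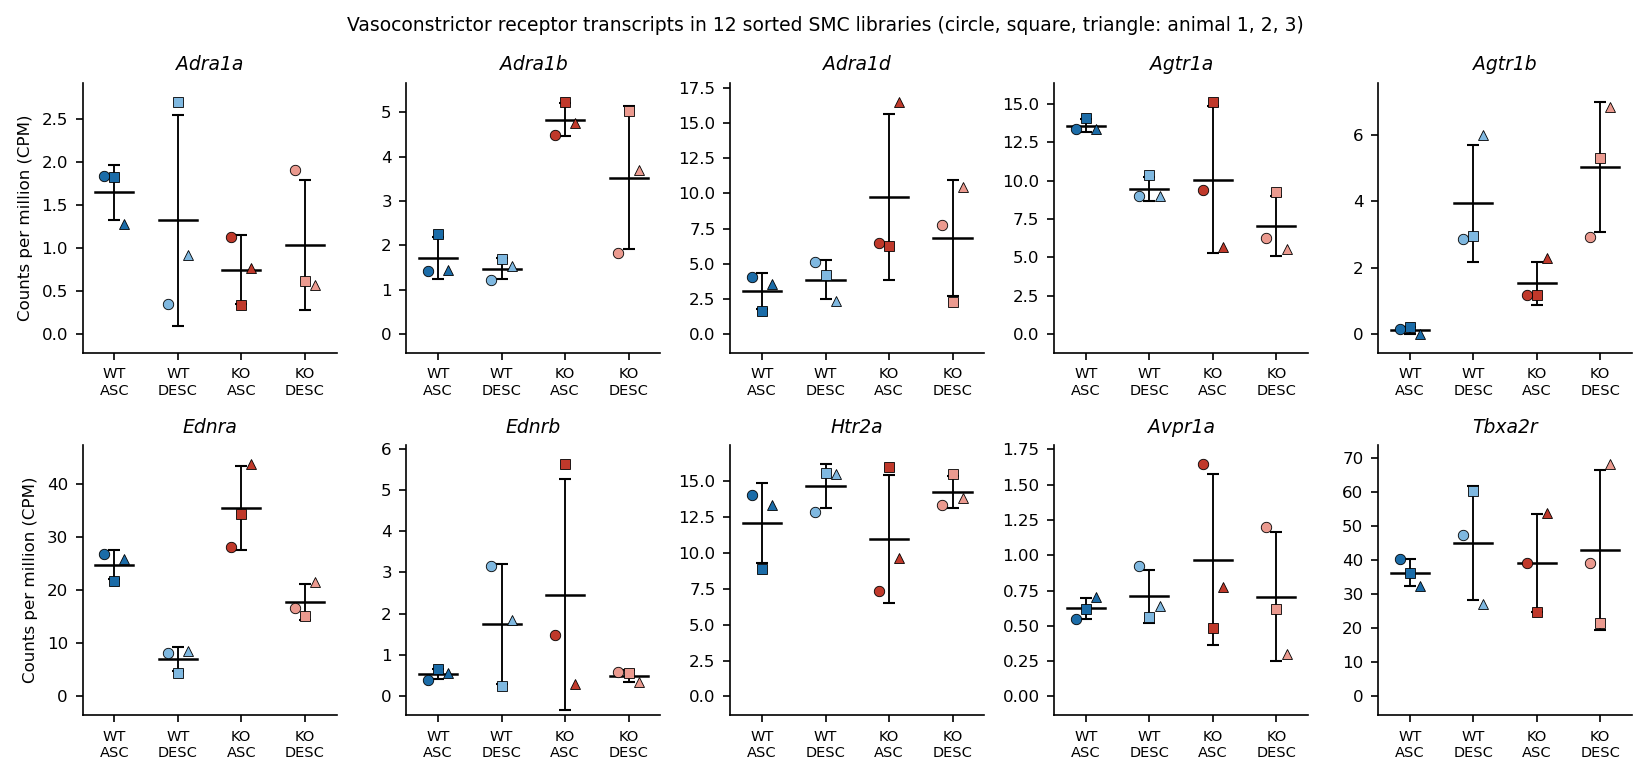
CPM of each receptor gene (linear axis, its own scale in each panel) in the 12 libraries. Points are libraries, shaped by animal number, horizontal lines are group means, and bars are SD over 3 animals. *Adra1b* and *Ednra* lie higher in KO than in WT within each segment without overlap, *Agtr1b* is near 0 in WT ASC, and *Tbxa2r* runs from 21.7 to 68.2 CPM with the genotypes overlapping.

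Divided by exon length, the receptor transcripts spanned a wide range. *Tbxa2r* was the most abundant per kilobase of exon in all 4 groups, at 18.9 ± 2.09 CPM per kb in WT ASC, 23.4 ± 8.73 in WT DESC, 20.4 ± 7.55 in KO ASC, and 22.4 ± 12.3 in KO DESC, and its libraries did not overlap with those of the next gene in any group. In WT ASC the order continued with *Agtr1a* (4.87 ± 0.144 CPM per kb), *Ednra* (4.53 ± 0.493), *Htr2a* (2.15 ± 0.5003), *Adra1d* (1.61 ± 0.675), and *Adra1b* (0.507 ± 0.141). *Agtr1a* and *Ednra* overlapped with each other there, as did *Htr2a* and *Adra1d*. *Avpr1a*, *Adra1a*, *Ednrb*, and *Agtr1b* followed at 0.233, 0.188, 0.128, and 0.0547 CPM per kb, each overlapping with its neighbor. In WT DESC, *Ednra* took the sixth place at 1.29 ± 0.423 CPM per kb and *Agtr1b* the fifth at 1.83 ± 0.827, and these neighbors overlapped. In KO ASC, *Ednra* (6.47 ± 1.44 CPM per kb) and *Adra1d* (5.13 ± 3.09) took the second and the third place, again with overlapping libraries. In KO DESC the places from the fourth to the sixth went to *Htr2a*, *Agtr1a*, and *Agtr1b* at 2.53, 2.52, and 2.35 CPM per kb, all overlapping.

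Over both segments, 2 of the 10 receptor genes were higher in KO than in WT SMCs and none was lower. *Adra1b* rose 2.59-fold and *Ednra* 1.89-fold, at an adjusted p under 0.05 in edgeR's quasi-likelihood test, whose model held segment and genotype. Of all 22320 genes tested, 1.8% were called higher in KO and 3.23% lower. With a change of more than 2-fold required as well, *Adra1b* alone was called, against 1.03% of all genes called higher and 1.64% lower. *Adra1b* and *Ednra* were also the members whose KO libraries all lay above the WT libraries within both segments, a pattern found in 2.22% of genes. The model treats the 2 libraries of an animal as independent. With counts summed per animal, edgeR gave adjusted p values of 0.0727 for *Adra1b* and 0.221 for *Ednra*, and no member was called. The median log2 fold change of the 10 members was 0.26, beside 0.04 for all genes, and 4 members had an unadjusted p under 0.05, beside 16.1% of all genes. Markers of other cell types moved with genotype as well. Of the 8 endothelial markers, 7 were higher in KO by estimate, with a median log2 fold change of 0.95, and 1 was called, *Cdh5*, at 0 to 0.513 CPM in WT and 0.497 to 2.71 CPM in KO. Their summed level was 67.7 to 91.6 CPM in WT ASC, 76.7 to 101 in WT DESC, 56.6 to 107 in KO ASC, and 82.1 to 94.1 in KO DESC. Of 4 cardiomyocyte markers tested, 3 were higher in KO by estimate, with a median of 0.70, and 1 was called, *Actc1*, at 0.269 to 2.85 CPM in WT and 2.06 to 69.9 CPM in KO. The 6 listed cardiomyocyte markers summed to 82.0 to 94.6 CPM in WT ASC and 108 to 217 CPM in KO ASC, and to 36.2 to 81.9 CPM in WT DESC and 54.5 to 74.7 CPM in KO DESC, with *Myl7* at 0 in every library. Of 7 fibroblast markers tested, 5 were higher in KO by estimate (median 0.38), and of 7 macrophage markers 6 (median 0.53), with none called. The 8 fibroblast markers summed to 325 to 449 CPM in WT ASC and 535 to 1361 CPM in KO ASC. In DESC they summed to 206 to 665 CPM in WT and 186 to 1035 CPM in KO. The part of all these cells in the receptor values was not tested.

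The α1-adrenergic receptors bind norepinephrine and couple to Gq. *Adra1b* (chromosome 11, 43774606 to 43901210, minus strand, GRCm38) measured 1.43, 2.27, and 1.45 CPM in the WT1, WT2, and WT3 ASC libraries and 1.23, 1.68, and 1.53 CPM in the corresponding DESC libraries. In KO animals 1 to 3 it measured 4.50, 5.24, and 4.77 CPM in ASC and 1.82, 5.03, and 3.71 CPM in DESC. Every KO library was above every WT library of its segment, although KO1 DESC lay only just above the highest WT DESC library. On the log2 scale the genotype effect was 1.37 (SE 0.27, edgeR adjusted p = 0.00848). It was 1.49 (SE 0.40, adjusted p = 0.104) within ASC and 1.25 (SE 0.40, adjusted p = 0.195) within DESC, and the difference between these effects was −0.24 (SE 0.55, adjusted p = 1.00). The call was lost without WT1 (adjusted p = 0.0798) or WT3 (0.0591) and with counts summed per animal (0.0727), while the log2 fold change stayed between 1.18 and 1.55 whichever animal was left out.

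*Adra1d* (chromosome 2, 131545850 to 131562283, minus strand), the subtype prominent in rodent aorta, was the most abundant of the 3 per kilobase in each group mean, though *Adra1b* exceeded it in KO2 DESC. It measured 4.03, 1.61, and 3.55 CPM in the WT ASC libraries, 5.10, 4.21, and 2.33 in WT DESC, 6.45, 6.26, and 16.5 in KO ASC, and 7.74, 2.31, and 10.5 in KO DESC. The KO ASC libraries were all above WT ASC, as in 8.87% of genes, whereas KO2 DESC was the lowest descending library of all. The log2 fold change of 1.24 (SE 0.42) had an adjusted p of 0.123, which became 0.0316 without KO2, 0.444 without KO3, and 0.0249 in DESeq2. The exons of *Adra1d* share 147 bases with an antisense gene, and the library kit does not mark strand. *Adra1a* (chromosome 14, 66635251 to 66771168, plus strand) was scarce, at 0.340 to 2.70 CPM, with all KO ASC libraries (0.340 to 1.13 CPM) below WT ASC (1.28 to 1.83 CPM), as in 10.1% of genes, and overlapping libraries in DESC. Its genotype effect was −0.74 on the log2 scale (SE 0.50), with an adjusted p of 0.566.

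Summed per kilobase over the 3 genes, α1-adrenergic receptor transcripts reached 2.31 ± 0.527 CPM per kb in WT ASC and 6.65 ± 3.08 in KO ASC, and 2.63 ± 0.735 in WT DESC and 4.76 ± 1.95 in KO DESC. The 6 ASC libraries did not overlap between genotypes, from 1.73 to 2.76 CPM per kb in WT and from 4.86 to 10.2 in KO. Of single genes, 8.87% had KO above WT without overlap within ASC. The DESC libraries overlapped, since KO2 at 2.77 CPM per kb was within the WT range of 1.78 to 3.09. *Adra1d* held 67.6% of the length-corrected α1 sum in WT ASC, 76.3% in WT DESC, 74.2% in KO ASC, and 70.2% in KO DESC on average. Its share ran from 49.2% to 77.0% over the WT ASC libraries and from 43.8% to 84.3% over the KO DESC libraries, and the groups overlapped. In KO2 DESC, *Adra1b* held 53.6% and *Adra1d* 43.8%. *Adra1a* held 8.56% or less in each group mean.

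**Figure D2:**
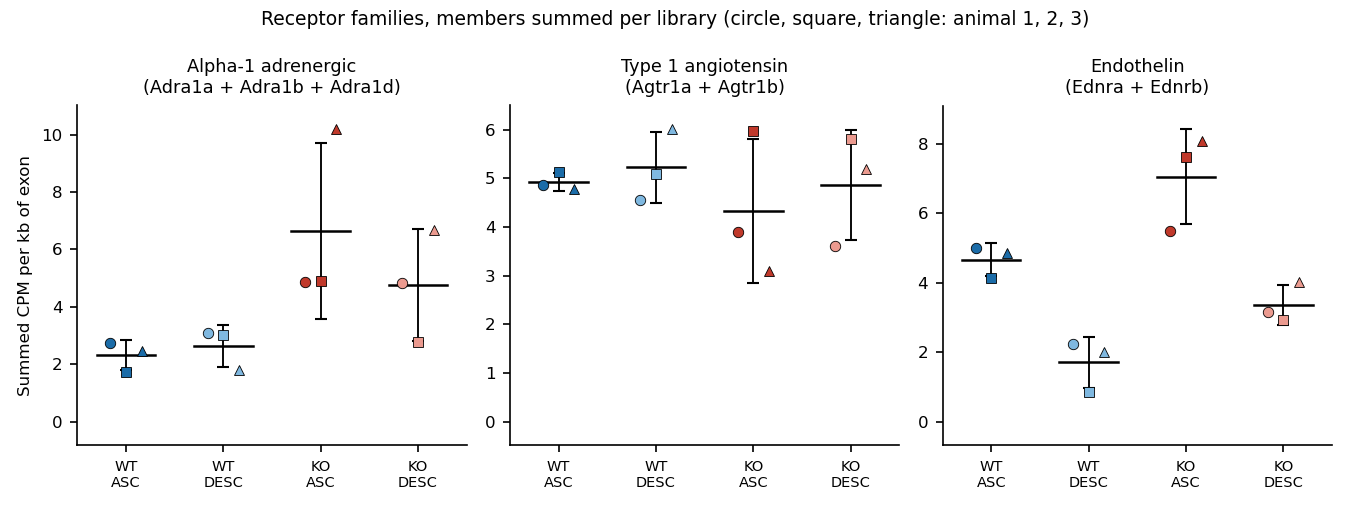
Summed CPM per kilobase of exon of the α1-adrenergic, type 1 angiotensin, and endothelin receptor genes in each library, with group mean and SD over 3 animals. The α1 sum lies between 4.86 and 10.2 in KO ASC, above the 1.73 to 2.76 of WT ASC, the angiotensin sum has group means between 4.33 and 5.23, and the endothelin sum is lower in DESC than in ASC within each genotype.

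The annotated starts of the members called between genotypes are shown, *Ednra* and *Adra1b* over both segments and *Agtr1b* within ASC. RefSeq (GRCm38.p6) lists 1 start for *Ednra*, 2 for *Adra1b*, and 1 for *Agtr1b*, and 7 of the 10 members have an entry in the promoter table. The 180 bases before each start follow, with the pentamer CAGAC or its reverse complement, the core bound by Smad3 and Smad4, in capitals where it occurs.
Ednra, chr8:77724453-77724632, minus strand: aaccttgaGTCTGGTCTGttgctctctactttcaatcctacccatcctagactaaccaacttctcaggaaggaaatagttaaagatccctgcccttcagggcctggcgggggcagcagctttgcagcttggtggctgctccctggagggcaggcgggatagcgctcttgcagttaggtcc
Adra1b, chr11:43901238-43901417, minus strand: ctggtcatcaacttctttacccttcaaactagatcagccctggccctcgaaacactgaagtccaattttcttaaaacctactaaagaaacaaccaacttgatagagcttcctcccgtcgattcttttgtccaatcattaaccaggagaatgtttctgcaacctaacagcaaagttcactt
Adra1b, chr11:43836490-43836669, minus strand: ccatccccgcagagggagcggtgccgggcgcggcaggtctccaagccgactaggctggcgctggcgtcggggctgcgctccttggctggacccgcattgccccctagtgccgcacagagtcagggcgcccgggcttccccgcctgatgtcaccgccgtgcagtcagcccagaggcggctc
Agtr1b, chr3:20367178-20367357, minus strand: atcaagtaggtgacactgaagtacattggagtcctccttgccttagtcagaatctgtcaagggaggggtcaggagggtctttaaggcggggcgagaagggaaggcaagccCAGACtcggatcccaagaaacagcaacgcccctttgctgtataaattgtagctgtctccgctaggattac
In the 250 bases before the start, *Ednra* held 2 adjoining matches, at −172 and −167, *Agtr1b* held 1, at −70, and neither *Adra1b* start held any. A match on either strand occurred in 42.2% of 32851 promoters of that length, so its presence or absence sets none of these genes apart. The palindrome GTCTAGAC (0.167% of promoters) and the CArG box of serum response factor (1.47%) were found in none of the 9 member promoters, and the 3 motifs were searched independently of each other. GC content was 54.8% before *Ednra*, 41.6% before the upstream 72.8% before the downstream *Adra1b* start, and 52.0% before *Agtr1b*, beside a median of 52.4% over all promoters. The counts are for whole genes and do not say which *Adra1b* start was used.

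The endothelin A receptor, encoded by *Ednra* (chromosome 8, 77663031 to 77724464, minus strand), mediates constriction by endothelin, and during development it is needed in neural crest cells that contribute SMCs to the arch. It was the only member called both between genotypes over both segments and between segments over both genotypes. *Ednra* measured 26.9, 21.8, and 25.8 CPM in WT ASC and 8.17, 4.42, and 8.64 CPM in WT DESC. In KO it measured 28.1, 34.4, and 43.8 CPM in ASC and 16.6, 15.2, and 21.6 CPM in DESC. All KO libraries lay above the WT libraries of their segment, and in each genotype all ASC libraries lay above all DESC libraries.

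Between genotypes, the log2 fold change of *Ednra* was 0.92 (SE 0.23, edgeR adjusted p = 0.0313). Within DESC it was 1.33 (SE 0.29, adjusted p = 0.0387), where 0.52% of genes were called higher in KO and 1.21% lower and *Ednra* was the only member called. Within ASC it was 0.51 (SE 0.28, adjusted p = 0.552), and the difference between the segments' effects, 0.82 (SE 0.40), had an unadjusted p of 0.0638 and an adjusted p of 1.00. The calls rested on all 6 animals: leaving out any animal, from WT1 to KO3, gave adjusted p values of 0.0543 to 0.117 over both segments and 0.0857 to 0.190 within DESC. Counts summed per animal gave an adjusted p of 0.221, a random effect for the animal in limma-voom 0.0821, no segment term 0.455, and the DESC libraries alone 0.180.

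Between segments, *Ednra* was lower in DESC than in ASC. The log2 difference was −1.399 (SE 0.23, adjusted p = 0.00864) over both genotypes, where 0.578% of genes were called higher in ASC and 0.22% higher in DESC. In WT alone the log2 difference was −1.81 (SE 0.29, adjusted p = 0.0187), where 0.309% of genes were called higher in ASC. In KO it was −0.99 (SE 0.28, adjusted p = 0.565), where 0.112% of genes were called in either direction and no member was among them. *Ednra* was higher in ASC in 6 of 6 animals, and complete separation of the segments in this direction in both genotypes occurred in 1.14% of genes. With the animal as a block, the call over both genotypes (adjusted p = 0.0234) and that in WT (0.0229) were kept. Without WT1 (0.0855) or WT3 (0.0668) the call over both genotypes was lost, and without WT1, WT2, WT3, or KO1 the call in WT (0.252, 0.130, 0.136, and 0.0539). The fibroblast markers *Lum* and *Dcn* were also higher in ASC than in DESC in every animal, with *Lum* at 19.6 to 69.8 CPM in ASC and 0.944 to 3.93 CPM in DESC, and 2 of 7 fibroblast markers tested were called lower in DESC, as was *Tnnt2* of the cardiomyocyte list. Summed over all 8 fibroblast markers, the ranges were 325 to 449 CPM in WT ASC, 206 to 665 in WT DESC, 535 to 1361 in KO ASC, and 186 to 1035 in KO DESC. The part of these cells' RNA in the *Ednra* values was not tested. Of the exon bases of *Ednra*, 91 overlap a transcript on the opposite strand.

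*Ednrb*, the gene of the endothelin B receptor (chromosome 14, 103814625 to 103844402, minus strand), was scarce and uneven. It measured 0.403, 0.652, and 0.578 CPM in WT ASC and 3.15, 0.245, and 1.85 in WT DESC. In KO it measured 1.48, 5.63, and 0.290 CPM in ASC and 0.580, 0.577, and 0.337 in DESC. The highest value was in KO2 ASC. This library also held the most *Vwf*, an endothelial gene, at 12.7 CPM against 1.53 to 6.98 in the others. It held the most *Emcn* (1.75 CPM) and the second highest *Cdh5* (1.46 CPM) and *Pecam1* (87.5 CPM) as well. The other listed endothelial markers were not highest there, with *Tek* at 2.43, *Cldn5* at 0.776, *Kdr* at 0.388, and *Tie1* at 0.340 CPM. WT1 DESC, with the second highest *Ednrb*, held the lowest *Vwf* and the second highest *Kdr*, at 1.73 CPM. Its *Pecam1* was 72.3 CPM, *Cldn5* 0.422, *Emcn* 0.345, *Tie1* 0.307, *Tek* 0.115, and *Cdh5* 0 CPM. The part of endothelial RNA was not tested. The genotype effect of *Ednrb* had log2 values of 2.16 (SE 0.96, adjusted p = 0.414) in ASC and −1.80 (SE 0.96, adjusted p = 0.569) in DESC, and their difference of −3.96 (SE 1.35) had an unadjusted p of 0.0125 and an adjusted p of 1.00. *Ednra* held 97.8% of the endothelin receptor counts in WT ASC, 83.1% in WT DESC, 93.4% in KO ASC, and 97.1% in KO DESC, with 72.2% in WT1 DESC as the lowest library.

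The type 1 angiotensin receptors mediate constriction by angiotensin II. Of the pair, *Agtr1a* (chromosome 13, 30336441 to 30382867, plus strand) is the gene known to dominate in most mouse tissues, and *Agtr1b* (chromosome 3, 20314473 to 20367177, minus strand) is its close copy. Because near-identical genes can exchange reads, their sequences are shown first. Each coding sequence has 1077 bases in 1 exon, of which 978 (90.8%) are identical and 99 differ. The stretch of 120 bases with the most differences, coding bases 948 to 1067, holds 22, in capitals below (GENCODE M21, GRCm38).
Agtr1a, chr13:30381901-30382020, plus strand: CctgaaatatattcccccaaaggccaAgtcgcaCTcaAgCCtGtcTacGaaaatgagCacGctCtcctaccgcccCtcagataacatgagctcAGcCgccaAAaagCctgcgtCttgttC
Agtr1b, chr3:20315374-20315493, minus strand: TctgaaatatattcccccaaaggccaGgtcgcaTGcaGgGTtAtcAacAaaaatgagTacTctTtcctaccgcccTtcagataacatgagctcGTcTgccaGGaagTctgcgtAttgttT
The longest run without a difference has 66 bases, at coding bases 75 to 140.
Agtr1a and Agtr1b, chr13:30381028-30381093 and chr3:20316301-20316366: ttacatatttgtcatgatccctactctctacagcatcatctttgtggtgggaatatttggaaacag
Of all 50-base words in the annotated transcripts, 33 are shared, 1.13% of those of *Agtr1a* and 1.54% of those of *Agtr1b*, and no other of the 45 pairs of members shares any on either strand. The 66-base run holds only part of the 33 shared words, so other shared stretches of at least 50 bases exist. A read that lies wholly within any such stretch cannot be assigned by sequence. How the authors' quantification treated such reads, and the read length, are not given in the sources used here.

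*Agtr1b* had group means from 0.118 to 5.04 CPM, the widest ratio of the set. It measured 0.147 and 0.206 CPM in WT1 and WT2 ASC, from 4 and 6 counts, and was 0 in WT3 ASC, where up to 0.124 CPM is allowed by a count of 0. In WT DESC it measured 2.88, 2.94, and 5.99 CPM. In KO ASC it measured 1.17, 1.16, and 2.29 CPM, and in KO DESC 2.94, 5.32, and 6.85 CPM. WT ASC lay below each of the other groups without overlap, KO ASC lay below both DESC groups, and the DESC groups overlapped. Of all genes, 8.87% had KO above WT without overlap within ASC. DESC lay above ASC without overlap in 5.19% of genes in WT and 3.15% in KO.

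Within WT, *Agtr1b* was higher in DESC than in ASC by a log2 fold change of 4.97 (SE 0.74, edgeR adjusted p = 0.0136), and it was the only member among the 0.0672% of genes called higher in DESC there. The size of this fold is poorly fixed, since WT ASC held 0 to 6 counts, and it ran from 4.01 without WT3 to 5.77 without WT2 on the log2 scale. The animal as a block gave an adjusted p of 0.0667, and leaving out WT1, WT2, or WT3 gave 0.158, 0.0796, and 0.0548, so the call was lost. In KO the log2 fold change was 1.70 (SE 0.60, adjusted p = 0.904). Over both genotypes it was 3.06 (SE 0.66) with an edgeR adjusted p of 0.0526, and 0.182 with the animal as a block. Over the edgeR and DESeq2 alternatives that kept all animals, the adjusted p ran from 4.71e-06 to 0.182. With an animal left out it ran from 0.0596 to 0.319. *Agtr1b* was higher in DESC in 6 of 6 animals, as were 1.98% of genes, by log2 ratios of 1.05 to 3.70 after 0.5 CPM was added to each value. Complete separation of the segments in this direction in both genotypes was found in 0.497% of genes.

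Within ASC, *Agtr1b* was higher in KO than in WT by 3.62 on the log2 scale (SE 0.72, adjusted p = 0.0278), and it was the only member among the 0.403% of genes called higher in KO there, beside 1.01% called lower. With so few WT counts the size of this fold is poorly fixed. The call was kept without WT3 (0.0492) and lost without WT1 (0.158), WT2 (0.0863), KO1 (0.0721), KO2 (0.0673), or KO3 (0.0961). It was also lost with the ASC libraries alone (0.0929) and with a block for the replicate number. Over the edgeR and DESeq2 alternatives that kept all animals, the adjusted p ran from 1.29e-05 to 0.0929. Within DESC the log2 fold change was 0.36 (SE 0.58, adjusted p = 0.9496). The difference between these genotype effects, −3.26 (SE 0.92), had an unadjusted p of 0.00381 and an adjusted p of 1.00 in edgeR and 0.128 in DESeq2. By edgeR 0 genes (0%) were called for this difference, 2.95% of genes had an unadjusted p under 0.05, and DESeq2 called 8 genes, none of them a member. Over both segments the log2 fold change of 1.68 (SE 0.64, adjusted p = 0.189) fell to 0.70 without the segment term. It was 1.82 in DESeq2 (adjusted p = 0.0174) and 0.82 in limma-voom (adjusted p = 0.636).

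*Agtr1a* measured 13.4, 14.0, and 13.3 CPM in WT ASC and 8.98, 10.4, and 8.999 in WT DESC. In KO it measured 9.37, 15.1, and 5.67 CPM in ASC and 6.25, 9.28, and 5.57 in DESC. The WT segments did not overlap, as in 7.8% of genes with ASC the higher, and *Agtr1a* was higher in ASC in 6 of 6 animals, as were 3.39% of genes. The KO libraries were far more spread than the WT libraries. Its log2 difference between segments was −0.52 (SE 0.23), with an unadjusted p of 0.0404 and an adjusted p of 0.827, and its genotype effect was −0.43 on the same scale (SE 0.23, adjusted p = 0.402).

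The share of each gene in the type 1 angiotensin receptor counts, not corrected for exon length, is given next, as values without a test. *Agtr1b* made up 1.09%, 1.45%, and 0% of the counts of both genes in WT ASC and 24.3%, 22.1%, and 39.9% in WT DESC. In KO it made up 11.1%, 7.14%, and 28.7% in ASC and 32.0%, 36.4%, and 55.2% in DESC. The 95% Wilson interval of each share, which covers counting error only, reached at most 3.12% in WT ASC, while the lowest lower bound elsewhere was 4.85%, in KO2 ASC. The share was higher in DESC than in ASC in 6 of 6 animals, WT ASC did not overlap with any other group, and KO3 ASC lay within the range of WT DESC. Corrected for exon length, the mean *Agtr1b* share was 1.09% in WT ASC, 34.2% in WT DESC, 19.1% in KO ASC, and 47.3% in KO DESC. Per kilobase, the sum of both genes was 4.93 ± 0.183 CPM per kb in WT ASC, 5.23 ± 0.737 in WT DESC, 4.33 ± 1.48 in KO ASC, and 4.87 ± 1.13 in KO DESC, and all groups overlapped.

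**Figure D3:**
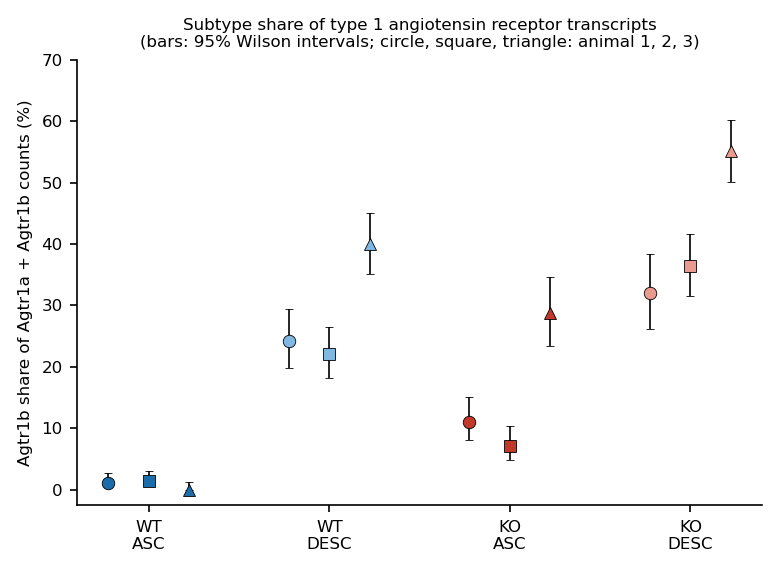
Share of *Agtr1b* in the counts of *Agtr1a* and *Agtr1b* together, in percent, in each library, with 95% Wilson intervals for counting error. The 3 WT ASC libraries lie at 0% to 1.45%, the KO ASC libraries at 7.14% to 28.7%, and the DESC libraries at 22.1% to 39.9% in WT and 32.0% to 55.2% in KO.

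*Htr2a*, *Avpr1a*, and *Tbxa2r* were called in no edgeR comparison, as was true of *Adra1a*, *Adra1d*, *Agtr1a*, and *Ednrb*. *Htr2a*, the serotonin 2A receptor gene (chromosome 14, 74640840 to 74709494, plus strand), measured 14.0, 8.86, and 13.3 CPM in WT ASC, 12.9, 15.6, and 15.5 in WT DESC, 7.34, 15.96, and 9.63 in KO ASC, and 13.3, 15.5, and 13.8 in KO DESC. Its genotype effect of −0.09 (SE 0.20, adjusted p = 0.914) was the second smallest of the set. *Avpr1a*, the vasopressin V1a receptor gene (chromosome 10, 122448499 to 122453452, plus strand), stayed between 0.304 and 1.65 CPM in all libraries, from 9 to 48 counts, and its genotype effect was 0.32 on the log2 scale (SE 0.41), with an adjusted p of 0.820.

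*Tbxa2r*, the thromboxane receptor gene (chromosome 10, 81328731 to 81335172, plus strand), measured 40.4, 36.1, and 32.4 CPM in WT ASC and 47.4, 60.3, and 27.1 in WT DESC. In KO it measured 39.1, 24.7, and 53.7 CPM in ASC and 39.3, 21.7, and 68.2 in DESC. KO3 was the highest and KO2 the lowest animal of its genotype in both segments, so that the genotypes overlapped fully. Its genotype effect, on the log2 scale, was 0.02 (SE 0.28) with an adjusted p of 0.985, and its segment effect 0.22 (SE 0.28) with an adjusted p of 0.999. Of the 8 SMC markers, *Lmod1*, *Smtn*, *Myh11*, and *Myocd* were high in the same libraries as *Tbxa2r*. *Lmod1* was at 912, 952, and 987 CPM in WT2 DESC, KO3 ASC, and KO3 DESC against 285 to 510 elsewhere. *Cnn1* was at 5427, 3757, and 3610 CPM in these libraries, in the same order, 4187 in WT1 DESC, and 1957 to 3479 elsewhere. *Acta2*, *Actg2*, and *Tagln* did not follow. *Acta2* was lowest in KO3 ASC and DESC (20543 and 21323 CPM) and *Actg2* in WT2 DESC (644 CPM). *Tagln* was highest in WT2 DESC (6187 CPM) and lowest in KO3 ASC (3801 CPM). Among 16016 protein-coding genes, those whose log2 CPM followed *Tbxa2r* most closely over the 12 libraries were *Por* (Pearson's r = 0.959), *Ifit2* (0.9505), and *Tmem214* (0.9498). For *Ednra* they were *Smim3* (0.934), *Ccdc71l* (0.932), and *Adgrd1* (0.924). These correlations describe 12 libraries from 6 animals, with group differences included.

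**Figure D4:**
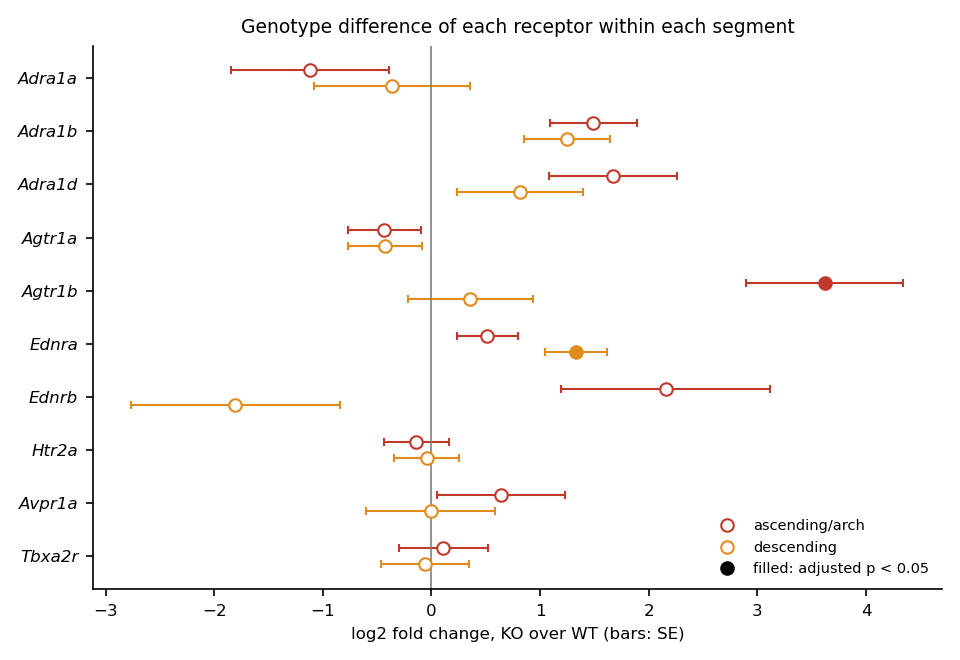
log2 fold change of each receptor gene, KO over WT, within ASC and within DESC, with SE from the edgeR fit over 12 libraries. Filled points have an adjusted p under 0.05, which holds for *Agtr1b* in ASC (3.62) and *Ednra* in DESC (1.33).

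Between segments, the set as a whole was near balance. Its median log2 difference, DESC over ASC, was −0.12 beside 0.00 for all genes, with 4 members higher and 6 lower by estimate. *Ednra* and *Agtr1a* were higher in ASC, and *Agtr1b* in DESC, in all 6 animals. *Adra1b* was higher in ASC in 5 of 6 animals with a log2 difference of −0.34 (SE 0.27, adjusted p = 0.999). *Adra1a*, *Adra1d*, and *Ednrb* were each higher in DESC in 3 of 6.

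**Figure D5:**
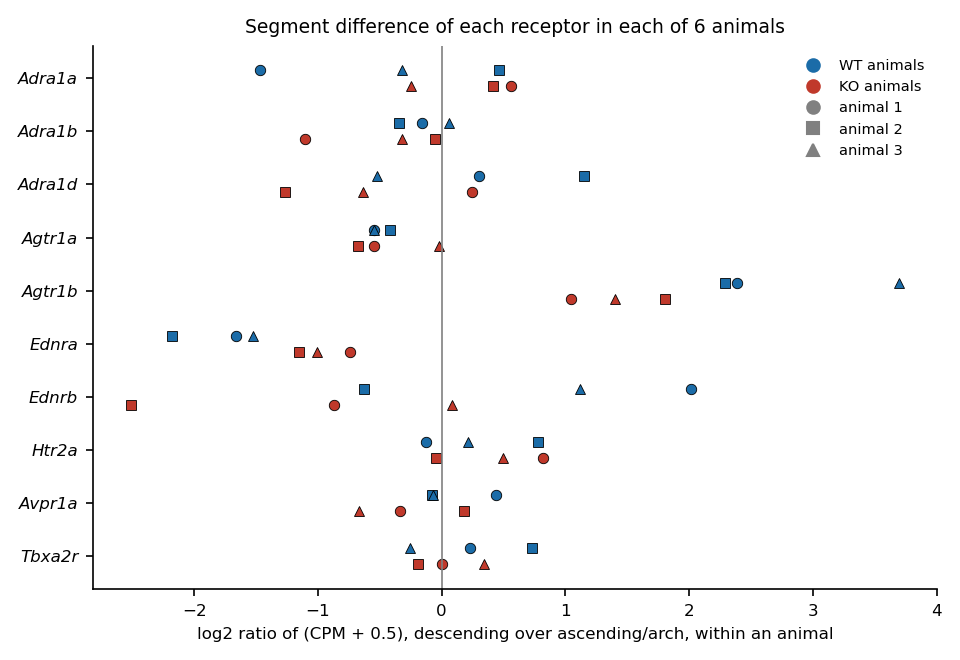
log2 ratio of DESC over ASC within each animal, after 0.5 CPM was added to each value. *Agtr1b* lies right of 0 in all 6 animals and *Ednra* and *Agtr1a* left of 0 in all 6, while the ratios of *Ednrb* run from −2.51 to 2.01.

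In a pair of lists of genes around the receptors, all 4 genes that were called between genotypes were lower in KO. Of 27 other vasoconstrictor and related receptors, ligands, and modulators, 25 were tested, 2 fell in KO and none rose, beside 3.23% of all genes called lower and 1.8% higher, and their median log2 fold change was −0.58 beside 0.04 for all genes. *F2r*, the thrombin receptor gene, fell from 303 ± 11.9 to 162 ± 35.0 CPM in ASC and from 215 ± 35.7 to 104 ± 13.8 CPM in DESC, or by 0.97 on the log2 scale over both segments (SE 0.13, adjusted p = 0.000371). *P2ry6*, a receptor for uridine diphosphate, fell with a log2 value of −0.66 (SE 0.16, adjusted p = 0.0284), a call lost without WT1, WT2, KO1, or KO3 (0.0752 to 0.171), with counts summed per animal (0.184), without the segment term (0.0958), with library size only (0.0595), and without the filter (0.0684). Between segments, 4 of these 25 were called, 2 in each direction, beside 0.22% of all genes called higher in DESC and 0.578% higher in ASC. *Ptger3*, a prostaglandin E2 receptor gene, and *P2rx1*, an ATP-gated channel, were higher in DESC, with log2 differences of 2.40 (adjusted p = 0.0116) and 1.22 (0.0162). The call of *Ptger3* was lost without WT1, WT2, WT3, or KO3 (adjusted p of 0.0509 to 0.0868) and that of *P2rx1* without WT2, WT3, or KO1 (0.0869 to 0.127). *Lpar1*, a lysophosphatidic acid receptor gene, and *Npy1r*, a neuropeptide Y receptor gene, were higher in ASC, with −3.30 (0.00418) and −1.07 (0.00205). Of 7 fibroblast markers tested, 5 were also higher in ASC by estimate, with *Lum* and *Dcn* called, and 2 were higher in DESC. The part of fibroblast RNA in the *Lpar1* and *Npy1r* values was not tested. *Npy1r* averaged 321 ± 29.3 CPM in WT ASC and 162 ± 33.9 in WT DESC.

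Of 13 receptor brakes, which are regulators of G-protein signaling, receptor kinases, arrestins, and an angiotensin receptor–associated protein, 12 were tested. Between genotypes 2 fell in KO and none rose, beside 3.23% of all genes called lower and 1.8% higher. By estimate 6 were higher and 6 lower in KO, with a median log2 fold change of 0.00. *Rgs5*, which shortens Gq and Gi signals in SMCs, fell by 1.52 on the log2 scale (SE 0.21, adjusted p = 0.000701), from 3573 ± 1292 to 1152 ± 407 CPM in ASC and from 4177 ± 478 to 1573 ± 537 CPM in DESC. *Rgs4* fell by 0.63 on the log2 scale (SE 0.14, adjusted p = 0.0152), a call lost without WT1, WT2, or WT3 (0.0545 to 0.104) and with counts summed per animal (0.187). Between segments 1 of the 12 was called, beside 0.578% of all genes called higher in ASC and 0.22% higher in DESC. This was the kinase gene *Grk3*, lower in DESC than in ASC, with a log2 difference of −0.90 (SE 0.18, adjusted p = 0.0295). This call was lost whichever animal was left out (0.0529 to 0.222) and with the animal as a block (0.0605). The calls of *F2r*, *Rgs5*, *Lpar1*, and *Npy1r* were kept under every alternative run.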

How the data were processed

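The authors trimmed reads with Trim Galore (0.5.0), aligned them to GRCm38 with HISAT2 (2.1.0), and used StringTie (1.3.3b) to quantify the genes of GENCODE M15. The deposited values are whole-number counts per gene, not normalized. The step from StringTie coverage to counts is not given in the sources used here, and counts of 2 (32279 pairs of gene and library) outnumber counts of 1 (22574). Symbols, coordinates, and exon lengths came from GENCODE M21 on the same build for 52489 of 52636 genes. Whole-tissue, single-cell, and protein data were not analysed here.

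From the counts, edgeR 4.0.16 in R 4.3.3 was run with filterByExpr on 4 groups, TMM factors, and a two-sided quasi-likelihood test on 22320 genes, with Benjamini-Hochberg adjustment over all of them. The model had segment and genotype for effects over 12 libraries, and 4 group means otherwise. A call is an adjusted p under 0.05. Each SE is the size of the log2 effect divided by the root of its F statistic. CPM are counts over the TMM-adjusted library total, and CPM per kb divides them by the merged exon length in M21. The fits over 12 libraries treat the 2 libraries of an animal as independent. An exact two-sided permutation test of 3 animals against 3 cannot go below 0.1, so none is given. The common biological coefficient of variation was 0.442. Scripts were tested on simulated data.

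Libraries with the same genotype and number are segments of 1 animal by their labels. Their deviations from the group means over 9210 genes correlated at −0.242 to 0.661. Across genotypes the number is only a number, at −0.527 to 0.216.

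Named genes are all 10 members, *Tgfbr1* and *Tgfbr2*, every gene of 3 pathway lists called between genotypes or segments (1 of the lists is not reported here), and 3 genes most correlated with each of the 2 most abundant members. Other genes are named only beside a result they touch. The members and lists were chosen with earlier results of these data known. Alternatives were DESeq2 1.42.0, limma-voom 3.58.1, sums per animal, blocks, other scalings and filters, counts divided by 2, single segments, and each animal left out.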

Additional observations from a re-analysis of the deposited data

How the results depend on the processing

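Numbers of members called are given first. Over both segments, 2 members were called between genotypes, and 4 with DESeq2, 1 without the segment term, 1 with limma-voom, 0 with counts summed per animal, and 0 to 2 with an animal left out. With a 2-fold change required, 1 was called, and 2 with library size only, 3 with DESeq2, 0 with sums per animal, and 0 to 2 with an animal left out. Between segments, 1 was called, and 2 with library size only, no filter, halved counts, or DESeq2, and 0 to 1 with an animal left out. Within ASC, 1 was called, and 2 with DESeq2, 0 with the replicate block or ASC alone, and 0 to 1 with an animal left out. Within DESC, 1 was called, and 2 with DESeq2, 0 with DESC alone, and 0 with any animal left out. For segments in WT, 2 were called, 1 with the animal block, and 0 to 2 with an animal left out. The blocks changed no other number of members called.

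Estimates near 0 changed sign. Between genotypes these were *Ednrb* (−0.13) and *Tbxa2r* (−0.058) with a block for the replicate number, *Htr2a* (0.028) with library size only, and *Tbxa2r* (−0.025) in limma-voom, and between segments *Adra1a* (−0.15) with the animal block. With an animal left out, genotype effects ran from −0.51 to 0.86 for *Ednrb*, −0.30 to 0.044 for *Htr2a*, −0.29 to 0.57 for *Avpr1a*, and −0.38 to 0.31 for *Tbxa2r*. Segment effects ran from −0.25 to 0.36 for *Adra1a*, −0.32 to 0.067 for *Adra1d*, −1.09 to 0.67 for *Ednrb*, and −0.33 to 0.0038 for *Avpr1a*, and in WT from −0.029 to 0.73 for *Adra1d*. The difference of the genotype effects of *Adra1b* ran from −0.53 to 0.010. None of these had been called, and the cause was not tested.

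Over all genes, 1123 were called between genotypes, 2034 with DESeq2, 451 with sums per animal, and 622 to 1066 with an animal left out. Between segments 178 were called, 385 with DESeq2, and 84 to 146 with an animal left out. Within ASC 315 were called, 909 with DESeq2, and 128 to 240 with an animal left out, and within DESC 385, 907, and 136 to 330, with 150 from DESC alone. For segments in WT 84 were called, 286 with DESeq2, and 6 to 86 with an animal left out, and in KO 25, 165, and 5 to 19, with 47 unfiltered. The interaction gave 0, 8 with DESeq2, 1 unfiltered, and 0 to 3 with an animal left out. The median log2 fold change of all genes moved from 0.04 to 0.16 with library size only. The fewest counts were those of *Agtr1b* in WT ASC, at 0 to 6 per library.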
